A study of Mus musculus with 3 samples.

Results

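Cluster 12 is a group of 1871 cells out of the 37080 in the series, taken by the cluster number in the authors' deposited cell table, where it carries the name keratinocytes. It belongs to the 10 keratinocyte clusters, which together hold 20321 cells. The study asked how the epithelium of the anorectal junction of the mouse, where colon meets anus, looks before, during and after acute colitis. The mice were wild-type C57Bl/6, bought at 6 weeks of age. Day 0 mice were untreated and had normal histology, while the day 7 mice (severe colitis) and the day 42 mice (recovered) had been given 3% DSS (dextran sulfate sodium, which damages the lining of the colon) to drink for the first 6 days. Distal colon and anus of 5 mice were pooled for each day, digested with trypsin and depleted of dead cells by annexin V before droplet sequencing, giving 1 library per day. Day, pool of mice and library therefore cannot be told apart, and no test between days was possible. The intervals given are 95% counting intervals (Clopper-Pearson for shares of cells, Poisson for counts) that hold no variation between mice. The Poisson intervals also hold no variation between cells, and are too narrow where few cells hold the UMIs. Intervals that do not overlap are therefore no test of a day difference.

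The cluster goes by the names of Krt25, Krt71, Krt27 and Tchh, with Cnfn and Sprr1a as further markers. The first 4 belong to the inner root sheath, the stiff sleeve of keratinocytes that surrounds a growing hair shaft inside the follicle. There the type I keratins Krt25, Krt27 and Krt28 pair with type II keratins such as Krt71, and trichohyalin (Tchh) binds the filaments together. Cnfn (cornifelin) and Sprr1a belong to another programme, the cornified envelope, a crosslinked protein shell that replaces the cell membrane of keratinocytes at the surface of skin and of squamous mucosa. In skin the surface layers use Krt1 and Krt10, whereas the moist squamous lining of the mouth, oesophagus and anal canal uses Krt4 and Krt13, and the basal layer of both uses Krt5 and Krt14.

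The data went against the inner root sheath name. At day 0 the cluster held 7310 unique molecular identifiers (UMIs, each 1 captured RNA molecule) of Krt25, 7309 of Krt71, 1933 of Krt27, 2617 of Tchh and 189 of Krt28. All of them lay in 1 of the 51 cells, and the other 50 cells had 0 UMIs of each. That cell had 38715 UMIs and 3398 genes, with 42.75% of its UMIs from Krt25, Krt27 and Krt71, and it alone supplied 24.56% of the cluster's day 0 UMIs. At day 7, 53 of 1668 cells (3.18%, 2.39 to 4.14) had at least 1 UMI of the 3 keratins, 110 UMIs in all, and 1 cell had at least 10. At day 42 the count was 0 of 152 cells, which allows up to 2.40% of cells with a UMI and, at a median of 1010.5 UMIs per cell, sets no limit on cells that express the genes at a low level. So the UMIs of the keratins that named the cluster lay almost wholly in 1 cell, with 16552 UMIs of the 3 keratins against 110 in all day 7 cells, and the cluster is called by its number here.

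The single day 0 cell carried some other products known from hair sheath and cornified cells, and lacked others. It held 15 UMIs of Padi3, a deiminase that modifies trichohyalin, 14 of the transglutaminase Tgm1, 10 of Msx2 and 9 of Dlx3, both transcription factors of the hair matrix. It also held 575 UMIs of Sprr1a, 72 of Crnn (cornulin) and 31 of Cdsn (corneodesmosin), which joins surface cells. It had 0 UMIs of Krt14, Krt5, Krt6a, Krt17, Cnfn and Krt73. Of the hair follicle regulators it also held 15 UMIs of Cux1, 8 of Ovol1 and 1 of Prdm1. It had 0 of Gata3, Lef1, Foxn1, Hoxc13, Trps1, Msx1, Shh and Wnt10b. Of the crosslinking and processing enzymes it also held 17 UMIs of Cst6, 13 of Ctsd, 5 of Padi1 and 1 each of Tgm5 and Lgmn. It had 0 of Tgm3, Padi2, Padi4, Casp14 and Ctsl. Its Scrublet doublet score was 0.0107, below the day 0 median of 0.0272.

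Other cells rich in these keratins lay elsewhere in the series. Of the 15 cells with at least 100 UMIs of Krt25, Krt27 and Krt71 together, 14 were in keratinocyte cluster 17, with 110 to 6897 UMIs each, and 1 was the cell described above. None of the 14 was from day 0, where the highest cluster 17 cell had 85 UMIs. Summed, the 14 cells had less Krt25 (24692 against 188816 CPM) and Sprr1a (810 against 14852) than the cluster 12 cell, and more Krt73 (1964 against 0) and Gata3 (527 against 0). At day 7, 25.8% of cluster 17 cells (20.4 to 31.9) had a UMI of these keratins, against the 3.18% of cluster 12. The 3.18% was close to the 3.80% (3.38 to 4.26) of the other keratinocyte clusters together. Neutrophils (1.92%, 1.29 to 2.74) and colonocytes (1.87%, 1.13 to 2.91), which should lack the keratins, had them as well, and T cells 0 of 118. Median depth per cell was 1672.5 UMIs in cluster 12, 13804 in the other keratinocytes, 2585 in neutrophils and 4027 in colonocytes. Thinned to 1000 UMIs per cell, the day 7 share in cluster 12 was 1.58%. The highest of the 53 cells had 23 UMIs of these keratins among its 515, and each of the others had under 10. The part of free RNA in these UMIs was not tested.

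**Figure D1:**
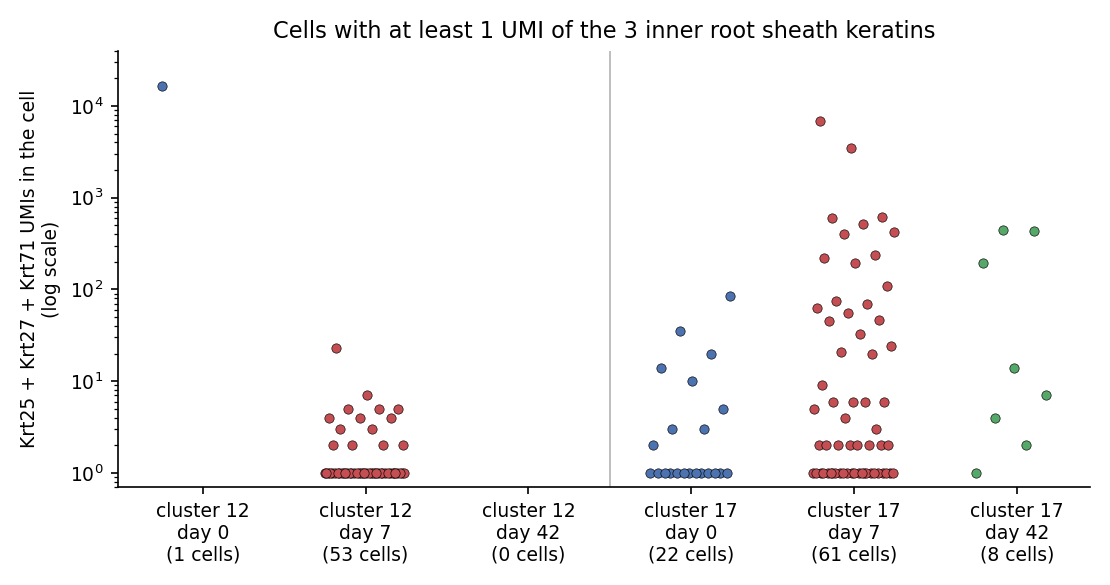
UMIs of Krt25, Krt27 and Krt71 together (log scale) in each cell of clusters 12 and 17 that has at least 1, by day. The day 0 cell of cluster 12 stands at 16552 UMIs, the 53 day 7 cells reach 23 at most, and cluster 17 reaches 6897.

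The keratins found together in that cell come from 2 gene clusters. Krt25 (chr11:99315516-99322951), Krt27 (chr11:99345565-99351104) and Krt28 (chr11:99364872-99374903) are neighbours, Krt71 lies at chr15:101733949-101743109 and Tchh at chr3:93442330-93449077, all in GRCm38 by GENCODE M21, with the keratins on the minus strand. The 80 bases before each keratin's RefSeq start (GRCm38.p6) are printed because the 4 genes were on together in 1 cell and nearly off in the rest of the cluster. Capitals mark TATAAA, the core of a TATA box.
Krt25: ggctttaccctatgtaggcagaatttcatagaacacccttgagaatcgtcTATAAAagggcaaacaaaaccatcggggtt
Krt27: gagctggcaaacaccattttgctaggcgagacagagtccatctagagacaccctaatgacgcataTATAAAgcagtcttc
Krt28: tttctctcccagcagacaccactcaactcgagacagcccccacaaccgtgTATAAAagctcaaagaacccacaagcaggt
Krt71: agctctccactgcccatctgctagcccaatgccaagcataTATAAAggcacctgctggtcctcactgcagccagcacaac
The letters stand 30 bases before the RefSeq start in Krt25 and Krt28, 40 in Krt71 and 15 in Krt27. For Krt27 and Krt71 the GENCODE start differs from the RefSeq start, so these distances hold for RefSeq only. The Krt71 window partly overlaps the GENCODE span given above. On the gene's strand 3.37% of the 32851 RefSeq promoter windows of this length hold TATAAA, and 4.75% hold it on either strand (TTTATA on the other). The same window of Tchh holds it on neither strand. A match describes the letters only.

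The cluster was mostly a day 7 population. It had 51, 1668 and 152 cells at days 0, 7 and 42, so 89.15% of it came from day 7. Its share of all keratinocytes was 1.54% (1.15 to 2.02), 18.5% (17.7 to 19.3) and 1.91% (1.62 to 2.23). No cell barcode was shared between libraries within the cluster, and 14 of its cells carried 1 of the 139 barcodes found in more than 1 library of the series.

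The cells were shallow. Median UMIs per cell were 1948, 1672.5 and 1010.5 at the 3 days, against 9216, 13804 and 6613.5 in the other keratinocyte clusters, and median detected genes were 775, 849 and 566. In each library the cluster had the lowest median depth of the 10 keratinocyte clusters. At day 7 it held 1199 of the 1669 keratinocytes with under 2500 UMIs, or 71.8%, against 21.4% at day 0 and 32.0% at day 42. The lowest total in the cluster was 501 UMIs and the lowest in the series 500. Keeping cells with 1000 or more UMIs, 500 or more genes and no more than 20% mitochondrial RNA, the shares of keratinocytes were 1.21%, 15.2% and 0.878%, which lowers the day 42 value by more than 1.5 times.

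**Figure D2:**
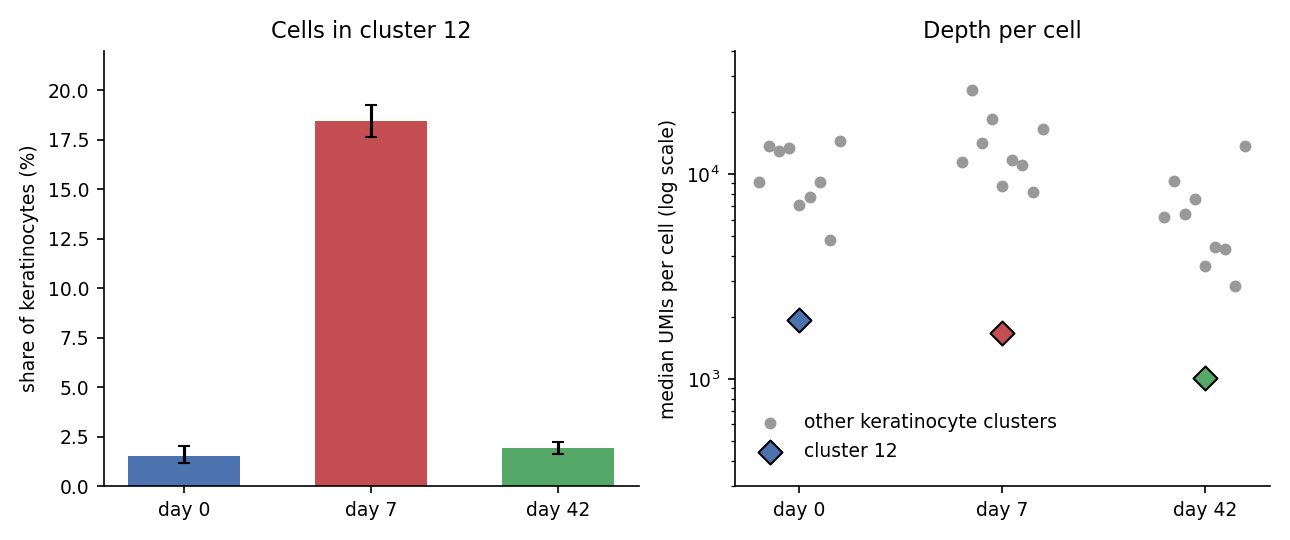
Left, the share of keratinocytes in cluster 12 in each library (bars) with 95% Clopper-Pearson intervals, 1.54%, 18.5% and 1.91%. Right, median UMIs per cell (log scale) of cluster 12 (diamonds) and of the 9 other keratinocyte clusters (grey), with cluster 12 lowest at every day.

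Most cells of the cluster at days 0 and 42, and a minority at day 7, carried almost no mitochondrial RNA. In 42 of 51 cells at day 0 (82.4%, 69.1 to 91.6), 445 of 1668 at day 7 (26.7%, 24.6 to 28.9) and 112 of 152 at day 42 (73.7%, 65.9 to 80.5) mitochondrial transcripts were under 1% of UMIs. In the other keratinocyte clusters the shares were 1.59%, 2.55% and 0.601%. The 1% limit was chosen after seeing the values and marks a range of cells, not a cell type, and 5, 105 and 20 cells of the cluster lay between 0.5% and 2%. The median mitochondrial share of the whole cluster was 0.179%, 5.00% and 0.225%, against 9.46%, 7.74% and 6.43% in the other keratinocytes.

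These mitochondria-poor cells also held less of the nuclear RNAs. Malat1, a long noncoding RNA kept in the nucleus (chr19:5795690-5802672), had a UMI in 23.8%, 26.3% and 22.3% of them, against 55.6%, 91.6% and 70.0% of the cluster's remaining cells. In the other keratinocytes with at least 1% mitochondrial UMIs it was found in 99.7%, 99.0% and 99.9%. The few mitochondria-poor cells of those other clusters had it in 28.85%, 27.7% and 21.3%, so the low share was not particular to cluster 12. At a matched depth of 1000 UMIs the shares in the mitochondria-poor cells were 15.2%, 14.0% and 18.4% (33, 350 and 49 cells deep enough, with 9, 95 and 63 left out). The remaining cells of the cluster had 42.9%, 89.8% and 72.4% (7, 979 and 29 cells, with 2, 244 and 11 left out). In the other keratinocytes at this depth it was 33.3%, 14.6% and 13.2% under the 1% limit and 92.3%, 86.3% and 96.0% over it. In CPM (UMIs of a gene scaled to a common total per group), Malat1 was 605, 320 and 479 in the mitochondria-poor cells and 2115, 6824 and 6964 in the rest. Neat1, another nuclear RNA, stood at 11.0, 36.9 and 63.3 CPM and at 570.0, 908.9 and 1153 CPM. In the other keratinocytes Malat1 was at 437, 746 and 9451 CPM under the 1% limit and 5336, 3569 and 8559 over it. At day 42 it was thus higher under the limit there, with 1011 UMIs in 10 of 47 cells. The day 0 values of the remaining cells of cluster 12 rest on the single inner root sheath cell, which holds 131 Malat1 UMIs. Without it the other 8 cells had 10 Malat1 UMIs, or 358 CPM, below the 605 CPM of the mitochondria-poor cells, and 1 Neat1 UMI. The mix of mitochondria-poor and remaining cells thus differed between days beside every level given for the whole cluster, and levels within the mitochondria-poor cells are given separately.

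**Figure D3:**
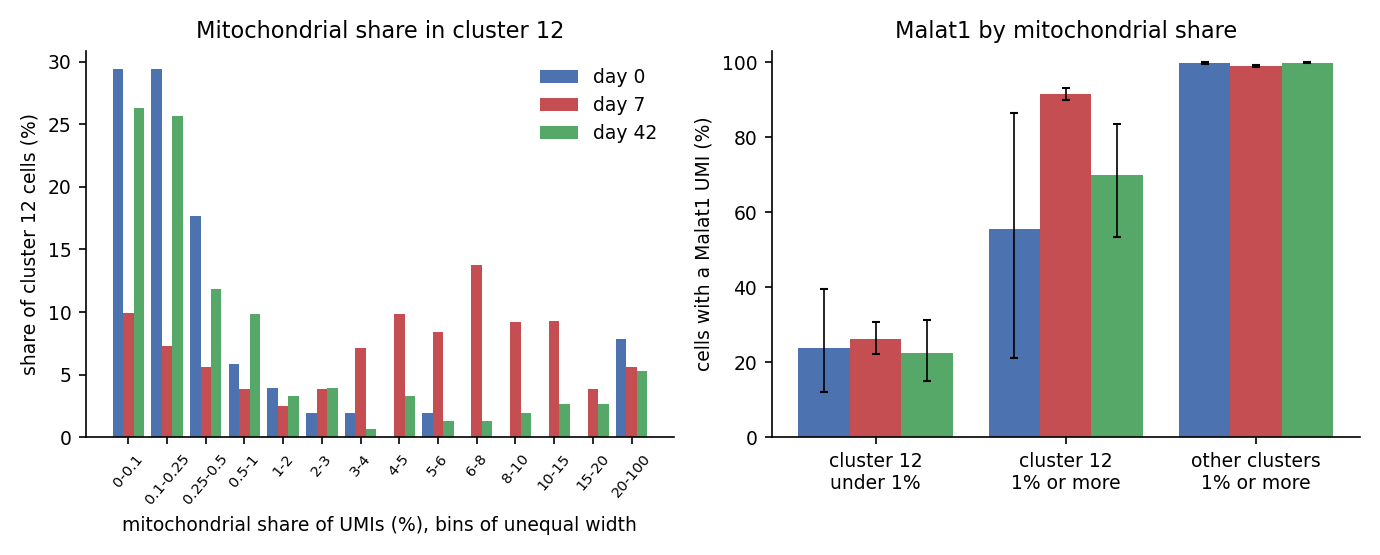
Left, the share of cluster 12 cells in each bin of mitochondrial share of UMIs, by day, with most cells of days 0 and 42 under 1%, and day 7 with 26.7% of its cells under 1% and a second, broader group above 3%. Right, the share of cells with a Malat1 UMI (95% Clopper-Pearson intervals), at each cell's full depth, 22.3% to 26.3% in mitochondria-poor cluster 12 cells and 99.0% or more in other keratinocytes over the 1% limit, which are deeper (at 1000 UMIs they stand at 86.3% to 96.0%).

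As a description, the summed profile of the cluster was set against the mean of the 9 other keratinocyte clusters. The clusters were cut from these same genes, so nothing is tested here. A log2 ratio was taken with 10 CPM added to both sides, among genes of at least 20 CPM in either, and 2.46% of 5904 genes were past 2-fold higher and 2.88% past 2-fold lower. Among the 20 genes highest in the cluster, several are known from other cells, such as Retnlg (653 against 59.4 CPM), S100a9 (3167 against 401), Il1b (385 against 45.3) and Tyrobp (137 against 14.8) of neutrophils and other myeloid cells. Lypd8 (767 against 65.9 CPM), Lgals4 (284 against 32.9) and Krt8 (202 against 38.4) are genes of colonocytes. The profile pools the days, and day 7 makes up 89.15% of cluster 12 but 7367 of the 18450 other keratinocytes. Within day 7 alone, summed over the other keratinocytes, Retnlg was at 715 against 111.5 CPM, S100a9 at 3441 against 744 and Il1b at 422 against 72.5, a smaller ratio for each. The colonocyte genes did not narrow, with Lypd8 at 836 against 70.2 CPM, Lgals4 at 306 against 26.9 and Krt8 at 215 against 24.6. These day 7 values are sums over cells, not a mean of clusters, so both the days and the reference differ from the pooled profile. The lowest included S100a3, a hair cuticle protein (18.8 against 737 CPM), Selenbp1 (28.8 against 512) and the chemokine Cxcl14 of the hair follicle (46.9 against 392). Summed over the cells of the other clusters instead, S100a3 was at only 17.1 CPM at day 7 and 90.0 at day 42. Scd1, a desaturase of sebaceous glands, was also among them (105 against 781 CPM). That mean was set by cluster 13, since at day 7 cluster 12 was above 8 of the 9 clusters.

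Hair and gland lists were mostly lower in the cluster than this mean once the single cell was set aside. Of the inner root sheath list 4 of 6 tested genes were past 2-fold higher than in the other clusters. Without the single cell 0 of 6 were higher and 6 of 6 lower (2.40% and 2.93% of all genes then). Each was then under 20 CPM in cluster 12 and tested only through the other clusters, so none could be past 2-fold higher. All 10 tested hair shaft genes were past 2-fold lower, Krt31 at 0.238 against 320.5 CPM. In the mean used each of the 9 clusters counts alike, also cluster 26 with 12, 20 and 3 cells by day. These 10 genes too were under 20 CPM in cluster 12 and tested only through that mean. Summed over the cells of the other clusters, the hair shaft list stood at 197.5, 62.5 and 135.5 CPM by day, against 63.4, 23.7 and 186.7 in cluster 12, which was thus higher at day 42. Of the sebaceous list 7 of 8 were lower than the same mean, Scd1 among them. The epidermal surface keratins Krt1 (608.5 against 1019 CPM) and Krt10 (897.5 against 1322) differed less, at log2 ratios of -0.73 and -0.55. Krt13 stood at 2611 against 1471 CPM (0.82), Krt14 at 11801 against 7974 (0.57) and Krt5 at 3643 against 2774 (0.39).

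In the mitochondria-poor cells alone, several cornified envelope and mucosal genes stood further above the other clusters, while 2.11% of 5882 genes were past 2-fold higher and 12.6% lower. Of the 20 genes highest in the whole cluster, Krt8 (-0.02), Lyz2 (-0.40) and Mgp (-0.18), a matrix protein at 2390 CPM in the day 7 fibroblasts, had log2 ratios below 0 there. The neutrophil genes S100a9 (2.02), S100a8 (1.33) and Retnlg (1.11) stayed past 2-fold higher, and Wfdc17 (0.86) and Il1b (0.70) did not reach it. At day 7, however, 10 of the 445 cells held 67.3%, 82.7% and 89.7% of the S100a9, S100a8 and Retnlg UMIs, and 45.0% of the neutrophil-gene-led sub-group 10 lay under the 1% limit. Of the cornified envelope list 6 of 11 were higher and 0 lower. Of the inner root sheath list 0 of 6 were higher and 6 lower, each tested only through the other clusters. The epidermal suprabasal list had 0 of 12 higher and 2 lower (median -0.46), and the barrier lipid list 0 of 5 higher and 3 lower (median -1.62). The log2 ratio of Cnfn was 2.11 there, against 1.37 for the whole cluster, and that of Sprr1a 1.84 against 1.13. Krt4 stood at 1.87 and Krt13 at 1.63, and the stress and wound keratins Krt6a, Krt6b and Krt16 at 1.39, 2.02 and 1.88. Of the 15 proliferation genes 9 were past 2-fold higher, among them Ube2c (1.79), Cdk1 (1.70) and Birc5 (1.57), which act in mitosis. Of the dissociation stress list 5 of 14 were past 2-fold lower and 0 higher, Jun at -2.26 and Fos at -1.27 among them. Likeness to other clusters was described by rank correlation across genes, with no test. The mitochondria-poor cells were most like the dividing cluster 3 at day 7 (Spearman 0.868) and cluster 5 at day 42 (0.760). At day 0 they were most like cluster 4 (0.669). The remaining cells of cluster 12 were also most like cluster 3 at day 7 (0.822) and cluster 5 at day 42 (0.7635). The likeness at these days thus did not set the mitochondria-poor cells apart. At day 0 the remaining cells, the single inner root sheath cell among them, were most like cluster 3 (0.5145).

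Cells within cluster 12 fell into 10 sub-groups when clustered again, and the sub-groups differed in mitochondrial share. Sub-groups 2, 3 and 4 were 83.5%, 84.4% and 97.3% mitochondria-poor. Sub-group 3 (231 cells) was led by Psca, a surface protein of stratified and glandular linings, lactoferrin (Ltf), Cnfn, Sprr2d, Sprr3 and Krt4, and it had 28, 126 and 77 cells at the 3 days. Its CPM summed over the cornified envelope list (9142) and over the mucosal list (20525) were the highest of the 10 sub-groups, followed by sub-group 8 (3745 and 4857), with 447 and 1583 in sub-group 4. Over the epidermal suprabasal list it stood at 19577 CPM, beside 14224 in sub-group 8 and 10000 in sub-group 6. Sub-group 4 (187 cells) was led by Nusap1, Ube2c, Cdk1 and Ccnb1, had a median of 4355 UMIs and lay almost whole in day 7 (176 cells). Sub-group 2 (242 cells) had a median of 961 UMIs and was led by Scoc, Ajuba and Igfbp3.

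The other sub-groups were led by genes mostly known from other cell types, and they carried the basal keratin Krt14. Sub-group 1, the largest with 553 cells, held the single inner root sheath cell and so was led by Krt25 (5555 CPM), followed by neutrophil and vessel genes such as Ccl21a, G0s2, Selp and Retnlg (1378 CPM). Sub-group 5 (173 cells) was led by the red cell gene Alas2, sub-group 6 (165) by the granins Chgb and Chga with Tph1, sub-group 7 (146) by the colonocyte genes Lypd8, Car1 and Lgals4, and sub-group 8 (107) by Atp12a and Clca4b. Sub-group 9 (47) was led by the gut hormones Sst, Iapp and Pyy, and sub-group 10 (20) by S100a9 and S100a8. In sub-groups 1 and 5 to 9, Krt14 was found in 92.5% to 100% of cells at 4617 to 9996 CPM. Sub-group 10 had Krt14 in 65.0% of cells at 1261 CPM, beside S100a9 at 165686 CPM. Outside day 7, sub-groups 5 to 10 had at most 3 cells each at any day.

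**Figure D4:**
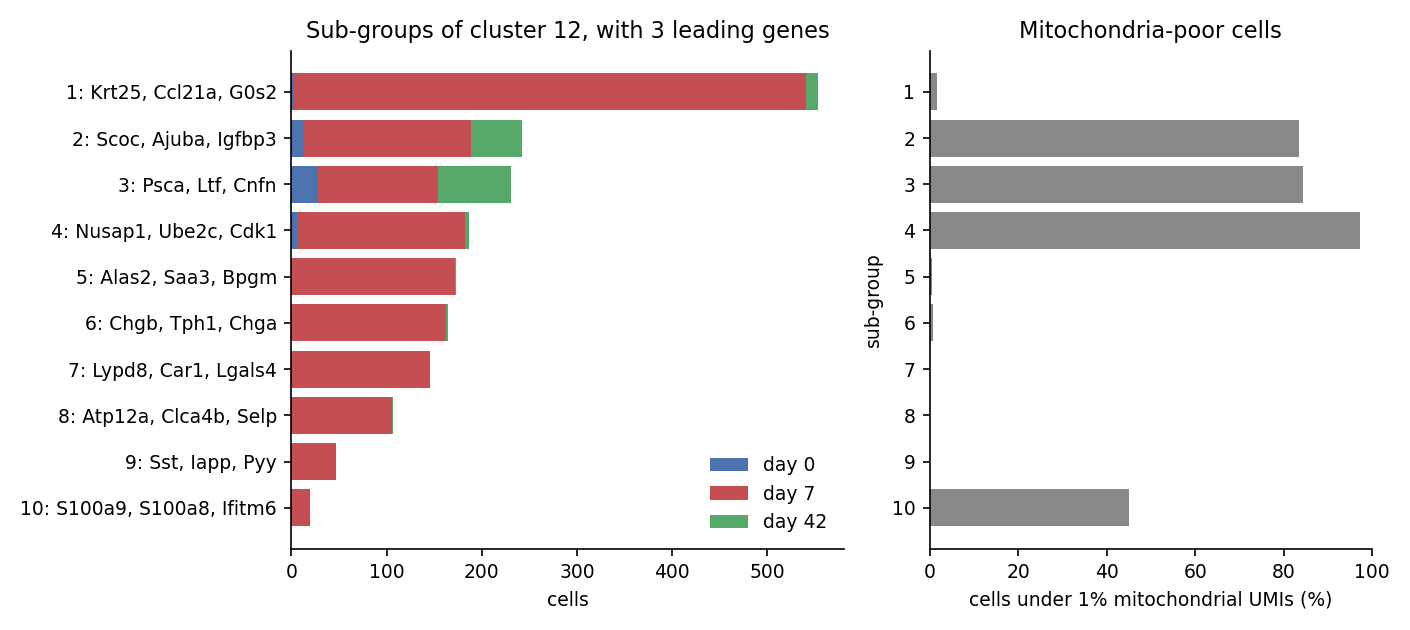
Left, cells of the 10 sub-groups of cluster 12 by day with 3 leading genes each. Right, the share of each sub-group with under 1% mitochondrial UMIs, 83.5% to 97.3% in sub-groups 2 to 4 45.0% in sub-group 10, and 0% to 1.63% in sub-groups 1 and 5 to 9.

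At day 7 the cluster held transcripts known from neutrophils, red cells and colon, some spread over many cells and some gathered in few. S100a9, part of the neutrophil alarm protein calprotectin, had a UMI in 74.0% of its day 7 cells, Retnlg in 40.5%, Lypd8 in 35.1% and Hbb-bs, a haemoglobin gene, in 28.2%. Of the 14930 Hbb-bs UMIs 37.7% lay in 10 cells, and the 173 cells of sub-group 5 held 10881 over all days. Of the 3205 Lypd8 UMIs at day 7, the 146 cells of sub-group 7 held 2075. As CPM these stood above most or all of the 9 other keratinocyte clusters of that library. S100a9 was at 3441 CPM against 57.0 to 1517, Retnlg at 715 against 2.71 to 276, and Lypd8 at 836 against 2.71 to 201. Per cell the picture differed, because cluster 12 cells hold few UMIs in all. S100a9 had 7.91 UMIs per cell in cluster 12, above 5 of the 9 clusters, whose values ran from 1.05 to 22.7. Retnlg had 1.65 UMIs per cell, above 6 of 9, and Lypd8 1.92, above 7 of 9. Malat1, found in nearly all other keratinocytes, had 10.1 UMIs per cell, below all 9 clusters (45.9 to 115).

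The gut hormone somatostatin (Sst) did not follow that pattern. It had 0.563 UMIs per cluster 12 cell at day 7, against 0 to 0.0466 in the other keratinocyte clusters. Its 939 UMIs lay in 47 cells, 25 of which had at least 10. Elsewhere in the day 7 library 1 of the 12 enteroendocrine cells, the cells that make the hormone, had at least 10, and 0 of the 12696 cells of all other kinds. At day 0, when 78 enteroendocrine cells were found, 14 of them had at least 10 and cluster 12 had 0. The cells of the Sst-led sub-group also carried Krt14 at 8916 CPM. Scrublet marked 0 of 14376 cells at day 7, so it did not work there, and 200 of the 1668 cluster 12 cells (11.99%) were among the 5% of that library with the highest scores. The part of doublets or of free RNA in these values was not tested.

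Between days, the whole cluster differed in large sets of genes. Set against day 0, day 7 had 18.7% of 5564 genes past 2-fold higher and 5.98% lower, and day 42 had 17.9% and 8.30% of 5206. Between days 42 and 7 it was 4.95% higher and 9.10% lower of 5617. The other keratinocyte clusters, which have far more UMIs, had 1.80% and 1.47%, 3.73% and 3.03%, and 2.82% and 2.17% in the same comparisons. Without the single day 0 cell, which takes 24.56% of the day 0 total, day 7 had 15.9% and 5.96%, and day 42 had 14.5% and 10.3%. Over all genes the ratios had medians of 0.31 (day 7 over day 0), 0.23 (day 42 over day 0) and -0.10 (day 42 over day 7) on the log2 scale. Median-of-ratios scaling, which shifts these comparisons by 0.33, 0.28 and -0.11, gave 12.5% higher and 8.90% lower for day 7 over day 0, and 12.2% and 11.9% for day 42 over day 0. The day 0 values rest on 51 cells and 157632 UMIs, against 3835352 at day 7 and 208866 at day 42.

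In the whole cluster at day 7, genes of neutrophils and inflammation led those higher than at day 0. Retnlg was at 715 CPM with 0 UMIs at day 0, which makes it at least 37.6-fold higher when day 0 is set at 3 counts over the library's cluster cells (19.0 CPM). On the same floor the cytokine Il1b was at least 22.2-fold higher, and the neutrophil-attracting chemokines Cxcl5 and Cxcl2 at least 19.9-fold and 18.0-fold. S100a9 stood at 101.5 CPM at day 0, 3441 at day 7 and 455 at day 42. In the other keratinocytes S100a9 was at 18.2, 744 and 126.5 CPM, so day 7 was highest in both. Of the neutrophil list 3 of 4 tested genes (Retnlg, Ly6g and Mmp9) were past 2-fold higher at day 7, against 18.7% of all genes. These were under 20 CPM at day 0 and tested only through day 7, so none could be past 2-fold lower. The list summed to 889 CPM at day 7, 38.1 at day 0 and 4.79 at day 42. From day 0 to day 7 the colonocyte list rose from 197 to 754 CPM and the fibroblast list from 31.7 to 301. The goblet list fell from 108 to 51.9 CPM, and the T cell list stood at 31.7 and 29.5.

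Genes of the squamous surface led those lower at day 7 than at day 0. Sprr1a was at 6401 CPM at day 0, 591 at day 7 and 2131 at day 42. Its day 0 value was 3650 without the single cell, which held 575 of its 1009 UMIs. Cnfn, of which that cell held none, was at 920, 249 and 436 CPM and was found in 33.3%, 12.1% and 19.1% of cells. The antimicrobial defensin Defb4 (317, 5.74 and 33.5 CPM, with the day 0 UMIs in 7.84% of cells) and Ly6g6c (824.7, 47.5 and 258.5 CPM) were also lower at day 7. Crnn (476, 2.61 and 4.79 CPM) rested on the single cell, with 72 of its 75 day 0 UMIs there, and so did most of Crct1, with 157 of 194. Over the cornified envelope list 10 of 14 tested genes were past 2-fold lower and 0 higher at day 7 against day 0 (median -1.67), and 10 of 13 without the single cell.

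The day comparisons were repeated within the mitochondria-poor cells, of which there were 42, 445 and 112 with 90961, 1436755 and 142095 UMIs. Here 13.5% of 5855 genes were past 2-fold higher and 13.8% lower for day 7 over day 0 (median log2 -0.06). For day 42 over day 0 it was 16.2% and 13.3% of 6231 genes (median -0.04), and for day 42 over day 7 it was 9.78% and 8.21% of 5615 (median 0.05). Median-of-ratios scaling shifts the day 7 against day 0 comparison by -0.12 here. The counts of list members that follow are for these cells, and stand against those percentages. The mix of sub-groups differed between the days in these cells too. Sub-group 3, with the highest surface gene levels, made up 61.9%, 24.0% and 55.4% of them at days 0, 7 and 42. Sub-groups 4 and 2 had proliferation lists at 5536 and 5254 CPM. Of these, sub-group 4 made up 11.9%, 38.7% and 4.46% of the cells, and sub-group 2 made up 26.2%, 32.8% and 40.2%. The surface and division genes described next move with this mix, and a change in mix and a change within cells were not told apart.

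The skin-type surface programme was highest at day 0. Krt1 stood at 3045 CPM (2697 to 3426) at day 0, 384 (353 to 418) at day 7 and 873 (726 to 1040) at day 42, and Krt10 at 4804, 680 and 1759 CPM. Day 0 was highest and day 7 lowest for both, with counting intervals that do not overlap. In the other keratinocytes Krt1 was lowest at day 42 instead, at 2256, 1414 and 555 CPM. Calm4, a calmodulin-like protein of the outer epidermis, followed with 3936, 255 and 1365 CPM. Of the epidermal suprabasal list 10 of 11 tested genes were past 2-fold lower at day 7 than at day 0 (median -2.03) and 9 of 11 at day 42 than at day 0 (median -1.44), with 0 higher in either. Krtdap, a secreted peptide of differentiating keratinocytes, was at 6651, 1462 and 1985 CPM.

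The mucosal surface programme was lowest at day 7, and at day 42 its members lay on both sides of their day 0 levels. Krt13 was at 8531 CPM (7941 to 9153) at day 0, 3903 (3801 to 4006) at day 7 and 8755 (8275 to 9255) at day 42, so days 0 and 42 overlap within counting error. Krt4, its partner keratin, was at 5442, 1208 and 2766 CPM. Ecm1, an extracellular matrix protein, was at 693, 394 and 2583 CPM, highest at day 42. Of the mucosal list 7 of 8 tested genes were past 2-fold lower at day 7 than at day 0 (median -1.36), and 8 of 8 were past 2-fold higher at day 42 than at day 7 (median 1.20). Between days 42 and 0, 1 of 8 was higher and 0 lower (median -0.00). In the other keratinocytes 3 of 6 of the list were higher at day 42 than at day 7, against 2.82% of all genes there.

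Alox15, a lipid-oxidising enzyme, had the highest ratio of day 42 over day 7, at 211 CPM (30 UMIs) against 3.48 (5 UMIs), followed by Psca, Ltf and Slurp1. The lowest ratios were those of Retnlg, with 0 UMIs at day 42 against 234 at day 7, and S100a8 (42.2 against 864 CPM). Both day 7 values rest on few cells, since without the 10 cells with most UMIs of each gene Retnlg was at 16.9 CPM and S100a8 at 151 CPM. S100a9 was at 627 CPM without its 10, against 1886 with them and 296 at day 42. Psca (chr15:74714839-74717069) was at 2210 CPM (1915 to 2537) at day 0, 230 (206 to 256) at day 7 and 3765 (3453 to 4098) at day 42. Ltf, which binds iron and kills bacteria (chr9:111019271-111042767), was at 264 (169 to 393), 130 (112 to 150) and 2139 (1906 to 2394). All 3 counting intervals are apart for both genes, with day 42 highest and day 7 lowest. The day 0 UMIs lay in 26.2% of cells for Psca and 16.7% for Ltf, a spread between cells that the intervals leave out. Slurp1, a secreted Ly6 protein of squamous epithelium, was at 440, 37.6 and 577 CPM. The simple keratin Krt19 was at 1132, 166 and 1358 CPM. The other keratinocytes had the same order for Psca (617, 132 and 2109 CPM) and Ltf (121.5, 55.7 and 1258).

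Most tested cornified envelope genes were lower at day 7 than at day 0, and fewer at day 42. Sprr1a was at 4518 CPM (4092 to 4977), 1139 (1085 to 1196) and 2688 (2425 to 2972), and Cnfn at 1473 (1234 to 1745), 405 (373 to 439) and 570 (453 to 709). Both were lowest at day 7, with counting intervals apart from the other days. At day 7, 9 of 13 tested genes of the list were past 2-fold lower than at day 0 and 1 higher (median -1.84). At day 42 it was 6 lower and 2 higher of 13 (median -0.91), the higher being Sprr2d and Sprr2h. The loricrin gene Lor, the main envelope protein of skin, had 24 UMIs at day 0, 26 at day 7 and 1 at day 42, or 264, 18.1 and 7.04 CPM, and the day 0 UMIs lay in 7.14% of cells. The ratio of day 0 to day 42 was 37.5 with a counting interval of 6.11 to 1542.

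Surface proteases and their inhibitors were mostly lower at day 7 as well. These enzymes loosen the uppermost cells, and the inhibitors restrain them. Of the list 8 of 15 tested genes were past 2-fold lower at day 7 than at day 0 and 1 higher (median -1.09). The kallikrein Klk14 stood at 308, 13.9 and 56.3 CPM, its 28 day 0 UMIs in 4.76% of cells, and the inhibitor Spink5 at 1033, 209.5 and 626. Klk8 was at 165, 25.8 and 7.04 CPM, with day 42 lowest and resting on 1 UMI.

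The basal keratin Krt14 and several wound genes had their lowest level at day 0. Krt14 was at 5827 CPM (5341 to 6345) at day 0, 17157 (16944 to 17373) at day 7 and 19944 (19217 to 20692) at day 42, and in the other keratinocytes at 4686, 9631 and 14443. Of the basal list 3 of 10 genes were past 2-fold higher and 1 lower at day 7 against day 0 (median 0.49), and likewise 3 and 1 at day 42 (median 0.43). Krt17, a keratin of wounds and of the hair follicle, was highest at day 7 (616, 2617 and 957 CPM) and so was Krt16 (286, 999.5 and 450). Krt6a stood at 3430, 4785 and 7453 CPM and Krt6b at 1044, 1215 and 2541, highest at day 42. Of the wound and alarm list 8 of 15 were higher and 1 lower at day 7 against day 0 (median 1.68). Those higher include S100a8, S100a9 and Il1b, which neutrophils also express, and of these 10 of the 445 cells held 82.7%, 67.3% and 88.6% of the UMIs. At day 42 it was 6 higher and 3 lower of 13 (median 0.81).

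Some genes seen at days 7 and 42 had no UMI in the mitochondria-poor cells of day 0. Stmn2, known from neurons, was at 427 CPM at day 7 and 394 at day 42, at least 12.9-fold and 11.95-fold above the day 0 floor of 3 counts (33.0 CPM). Cxcl5 was at 320 and 514 CPM, at least 9.71-fold and 15.6-fold higher. The interferon-inducible membrane protein Ifitm1 was at 110 and 514 CPM, at least 3.33-fold and 15.6-fold higher. In the other keratinocytes, with more day 0 UMIs, Cxcl5 was at 4.05, 348 and 437 CPM and Stmn2 at 1.62, 225 and 399.

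**Figure D5:**
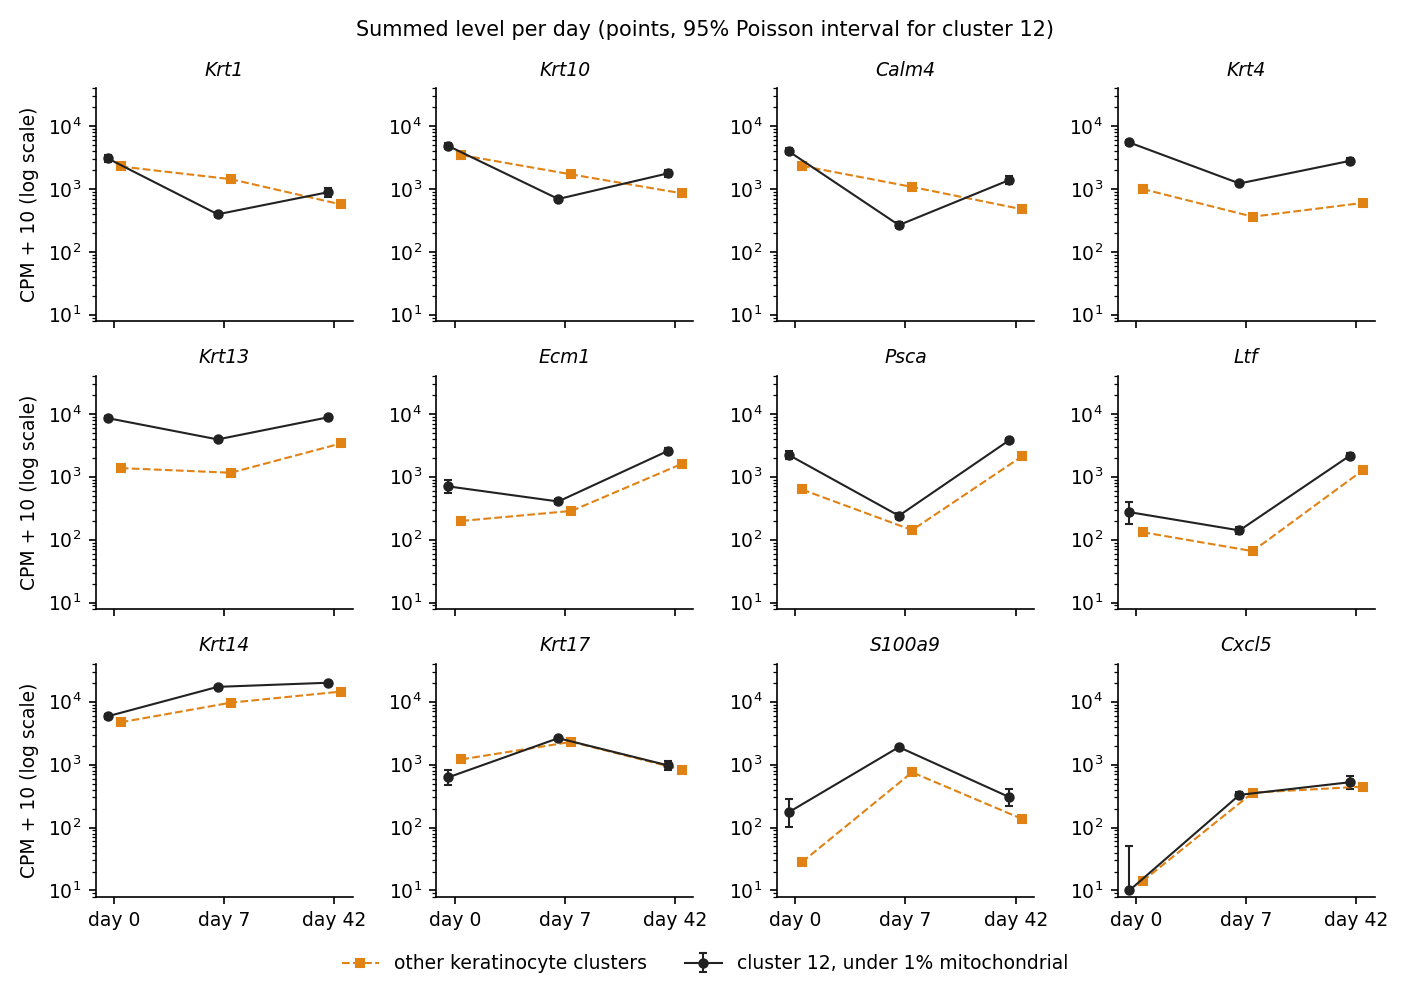
Levels of 12 genes (CPM plus 10, log scale) at days 0, 7 and 42 in the mitochondria-poor cells of cluster 12 (black, 95% Poisson intervals) and in the other keratinocyte clusters (orange). Psca and Ltf are highest at day 42, Krt1 and Calm4 at day 0, and S100a9 and Krt17 at day 7.

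Cell division genes were present at all days in the mitochondria-poor cells. Ube2c was at 308, 366 and 324 CPM. Of the 15 proliferation genes 5 were past 2-fold higher and 0 lower at day 7 against day 0 (Birc5, Ccnb2, Mcm5, Mcm6 and Tyms), and 4 were lower at day 42 than at day 7 (Cdk1, Cdc20, Pcna and Mcm5). Cdk1 stood at 98.9, 198 and 70.4 CPM. Of the dissociation stress list 6 of 12 were higher at day 7 than at day 0 and 8 of 13 at day 42, with Egr1 alone lower, at day 7. Neutrophil transcripts were also counted in a few of these cells at day 7. Retnlg was at 163 CPM and in 6.52% of cells, against 0 UMIs at days 0 and 42, and at 16.9 CPM without the 10 cells that held most of it. The part of such cells in the other differences was not tested.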

How the data were processed

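Single cells of 3 pooled libraries (5 mice each) were analysed from the authors' deposited table of raw UMI counts per gene and cell (31053 genes, 37080 cells) and the authors' deposited cell table with day and cluster. The size factor column, which the authors deposited and whose values are the ratio of a cell's total to 1 constant, was used only to check that both tables share 1 order. Cell Ranger 3.0.2 and mm10 are named per the submitters' processing notes. The filter on cells, the clustering method and doublet removal are not given in the sources used here.

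UMIs were summed over the cells of a group and library and scaled to CPM. Log2 ratios had 10 CPM added to both sides, genes needed 20 CPM in either group, and 2-fold was the limit. Genes named from a comparison were the 10 highest and 10 lowest ratios (20 highest against other clusters) with at least 100 CPM and a UMI in 5% of cells, beside markers and list members, and some genes that met the rule are not reported here. The cluster members and gene lists were chosen with earlier results of these data known. Intervals and the floor of 3 counts cover counting error only. Thinning drew 1000 UMIs per cell. The 1% mitochondrial limit, and leaving out the inner root sheath cell or the 10 cells with most UMIs of a neutrophil gene, were chosen after seeing the data. Sub-groups came from Leiden clustering (2000 variable genes, 20 components, 15 neighbours, resolution 0.5). Scrublet, run through scanpy 1.11.5, called 420, 0 and 267 cells as doublets at the 3 days, so it did not work at day 7. It called 1, 0 and 1 cluster 12 cells, and no cell was removed. Positions are from GENCODE M21, which matched 30934 gene IDs, and promoter windows from RefSeq. Python 3.11.15, numpy 2.4.6, pandas 2.3.3 and scipy 1.17.1 were used, and the ratio step was tested on simulated data. Library totals were 89241138, 151886649 and 72258639 UMIs.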

Additional observations from a re-analysis of the deposited data

How the results depend on the processing

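No paired analysis was possible because each day has 1 pooled library. The total share of genes past 2-fold at day 7 against day 0 (24.7%) was 13.4% with no filter on low values, 41.1% thinned to 1000 UMIs, 97.1% without the 10 cells with most UMIs of each gene and 55.6% in cells with at least 1% mitochondrial UMIs. At day 42 against day 0 (26.2%) it was 49.5% thinned, 71.2% without 10 cells and 60.0% in cells with at least 1%. At day 42 against day 7 (14.0%) it was 22.3% with 1 CPM added, 7.59% with no filter, 25.2% thinned, 74.5% without 10 cells and 28.8% in cells with at least 1%. Leaving out 10 cells weighs more on 51 cells than on 1668 by construction. The gene shares in cells with at least 1% leave out the inner root sheath cell, and their day 0 side is 8 cells with 27956 UMIs. Against the other clusters (5.34%) it was 9.32% with 1 CPM added, 1.75% with no filter and 14.7% in mitochondria-poor cells. The share of keratinocytes at day 0 (1.54%) was 0.462% of all cells and 0.279% among cells with at least 1%. At day 7 (18.5%) it was 15.2% with the filter on cells, 17.2% without the 5% highest Scrublet scores, 11.6% of all cells and 14.6% among cells with at least 1%. At day 42 (1.91%) it was 0.878%, 1.30% of all cells and 0.512% likewise. The inner root sheath share at day 7 (3.18%) was 1.58% thinned. The mitochondria-poor share at day 7 (26.7%) was 22.8% at a limit of 0.5% and 29.1% at 2%, and at day 42 (73.7%) 63.8% at 0.5% and 62.8% over 1000 UMIs. At resolution 0.25 there were 6 sub-groups and at resolution 1 there were 14. The adjusted Rand index, a measure of agreement in membership with the 10 sub-groups, was 0.473 and 0.6765. Leaving out the Scrublet calls was not possible at day 7, where there were 0.

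Signs turned for the named genes below, and the cause was not tested. For day 7 over day 0 and without 10 cells, the log2 ratio of Crct1 was 0.88 and that of Metrnl 1.43. In cells with at least 1% mitochondrial UMIs Metrnl was at 1.72, Defb4 at 0.12 and Lypd5 at 0.12. For day 42 over day 0 Lor was at 1.32 in those cells. Their day 0 side is 8 cells with 27956 UMIs, the inner root sheath cell being left out. The 50 Defb4 and 24 Lor UMIs of day 0 all lay in mitochondria-poor cells. Against the other clusters Mgp was at -0.18, Lyz2 at -0.40 and Krt8 at -0.02 in mitochondria-poor cells. Depth limits day 0 most, where 3 counts are 19.0 CPM.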
